A study of Rattus norvegicus with 24 samples.

Results

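Chemokines are small secreted proteins that guide leukocytes into tissue along their gradients, and epithelium, macrophages, endothelium and lymphocytes of the lung all produce some of them. In an irritated airway Cxcl1 and Cxcl2 draw neutrophils, Ccl2 draws monocytes, and Ccl3, Ccl4 and Ccl5 draw monocytes, T cells and natural killer (NK) cells. Cxcl10 is induced by interferons and attracts activated T cells, Cxcl12 is produced constitutively by stromal cells, and Cxcl16 and Cx3cl1 are made as membrane proteins that can be shed by proteases. These 10 genes were taken from a list of symbols, and all 10 of 10 were found on the array, through 11 of its 30367 probes. They were described here among 21255 genes or unnamed probes tested.

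The lungs came from 24 Fischer-344 rats of both sexes, 7-8 weeks old at the start, each measured on 1 one-colour array. The control group breathed filtered clean air, and the low-dose, middle-dose and high-dose groups inhaled hexanal, an aldehyde with an irritant vapour, at 600 ppm, 1000 ppm and 1500 ppm. Each group had 6 rats, 3 males and 3 females, and no rat carried any other treatment. Exposure lasted 4 h a day on 5 days a week in a nose-only chamber. The sample labels give 5 weeks, while the methods of the study give a shorter exposure, and the protocol in the labels gives the same 3 dose numbers in mg per cubic metre.

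The question was whether the lung changed its chemokine transcripts with dose. A level is the log2 of the background-subtracted signal minus that of the 75th percentile signal on the same array, so a difference of 1.00 is a 2-fold change, and levels of different genes are not compared because each probe has its own brightness. The 75th percentile of the arrays ranged from 1701 to 3133, and 70.7% to 81.8% of probes were well above background. All 8 of 8 lung markers tested (surfactant proteins, club cell, alveolar type I and endothelial genes) were well above background in every rat. There were 6 slides with 4 arrays each, all 4 from rats of the same sex. Control rats shared slides with low-dose rats, and none with middle-dose or high-dose rats, so the slides link the higher doses to the control group through the doses between. In whole lung pieces, fewer cells of a type and less RNA per cell cannot be told apart.

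The 250 bases before the transcription start are shown for Cxcl1, Cxcl2 and Ccl12. Cxcl1 and Cxcl2 lie next to each other and varied together among the rats. Ccl12, a chemokine gene outside the list, was higher at every dose by the study's unadjusted criterion given below, and at none after adjustment. The printed bases are RefSeq sequences of the assembly GRCr8. In it, Cxcl1 lies at chr14:17479322-17479571 on the minus strand, Cxcl2 at chr14:17467256-17467505 on the minus strand and Ccl12 at chr10:67567626-67567875 on the plus strand. Capitals mark matches to the NF-kB consensus, the site bound by the main inflammatory transcription factor of this family of genes, and to TATAAA, searched on both strands.
Cxcl1: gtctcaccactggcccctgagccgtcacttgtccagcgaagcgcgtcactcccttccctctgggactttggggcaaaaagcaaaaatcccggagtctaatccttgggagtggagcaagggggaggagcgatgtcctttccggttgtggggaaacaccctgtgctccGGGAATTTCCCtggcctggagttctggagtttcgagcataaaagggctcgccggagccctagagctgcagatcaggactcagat
Cxcl2: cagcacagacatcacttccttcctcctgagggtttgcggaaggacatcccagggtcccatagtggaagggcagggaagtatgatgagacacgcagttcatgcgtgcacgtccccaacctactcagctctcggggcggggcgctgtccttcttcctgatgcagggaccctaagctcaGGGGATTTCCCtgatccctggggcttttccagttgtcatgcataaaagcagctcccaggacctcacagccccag
Ccl12: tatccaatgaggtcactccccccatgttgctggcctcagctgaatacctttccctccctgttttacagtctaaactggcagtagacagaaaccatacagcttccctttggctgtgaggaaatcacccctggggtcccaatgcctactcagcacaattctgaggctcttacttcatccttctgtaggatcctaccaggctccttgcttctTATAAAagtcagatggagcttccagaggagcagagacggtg

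Of the 10 chemokines, 6 had a promoter in the table, and Ccl2, Ccl3, Ccl4 and Ccl5 had no entry. The NF-kB consensus stood 74 to 84 bases before the start of Cxcl1 and 64 to 74 bases before the start of Cxcl2, in each case as overlapping matches on both strands. In Cxcl10 it was found at 118 to 128 bases and again at 178 to 187 bases before the start. No match was found in these windows of Cxcl12, Cxcl16, Cx3cl1 or Ccl12. Among all 33469 promoters of this length in the table, 6.33% held the NF-kB consensus. The TATA motif given above was held by 12.9% and matched in Cxcl10, Cx3cl1 and Ccl12. The interferon-type core AANNGAAA, found in 23.3% of promoters, matched in Cxcl10 and Cxcl16. The AP-1 site, searched as TGANTCA and found in 6.34%, matched in Cxcl10. These are matches of letters in a window and were not tied to any change of level.

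Compared with the control group, none of the 10 chemokines changed at any dose by the criterion of the study, a fold change of at least 1.5 with an unadjusted p-value under 0.05, taken here from limma where the methods used a t-test. Over all genes tested in the low-dose group, 0.16% were counted as higher and 0.456% as lower by the same rule in limma. The shares were 1.29% higher and 0.343% lower in the middle-dose group, and 0.701% higher and 0.522% lower in the high-dose group, so a count of 0 among 10 genes is close to what the whole array gives. With no threshold on the fold change, 0 of 10 at 600 ppm, 2 of 10 at 1000 ppm and 1 of 10 at 1500 ppm had an unadjusted limma p-value under 0.05, where all genes gave 4.33%, 8.99% and 6.97%. All 3 of these values belong to Ccl3 and Cxcl12 and were decreases. After Benjamini-Hochberg adjustment over all genes, 0 of 10 passed at each dose, and the smallest adjusted p-values were 0.997, 0.515 and 0.69. The methods' t-test on the same values counted 0 of 10 at each dose and gave an unadjusted p-value under 0.05 for 0, 1 and 1 of them, with 0 after adjustment. The levels of the exposed rats overlapped those of the control rats for all 10 genes at each dose, while 0.275%, 0.455% and 0.484% of all genes had no overlap at 600, 1000 and 1500 ppm. The median difference of the 10 genes was -0.05, -0.06 and 0.05 on the log2 scale at the 3 doses, beside 0, 0 and 0.01 over all genes.

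**Figure D1:**
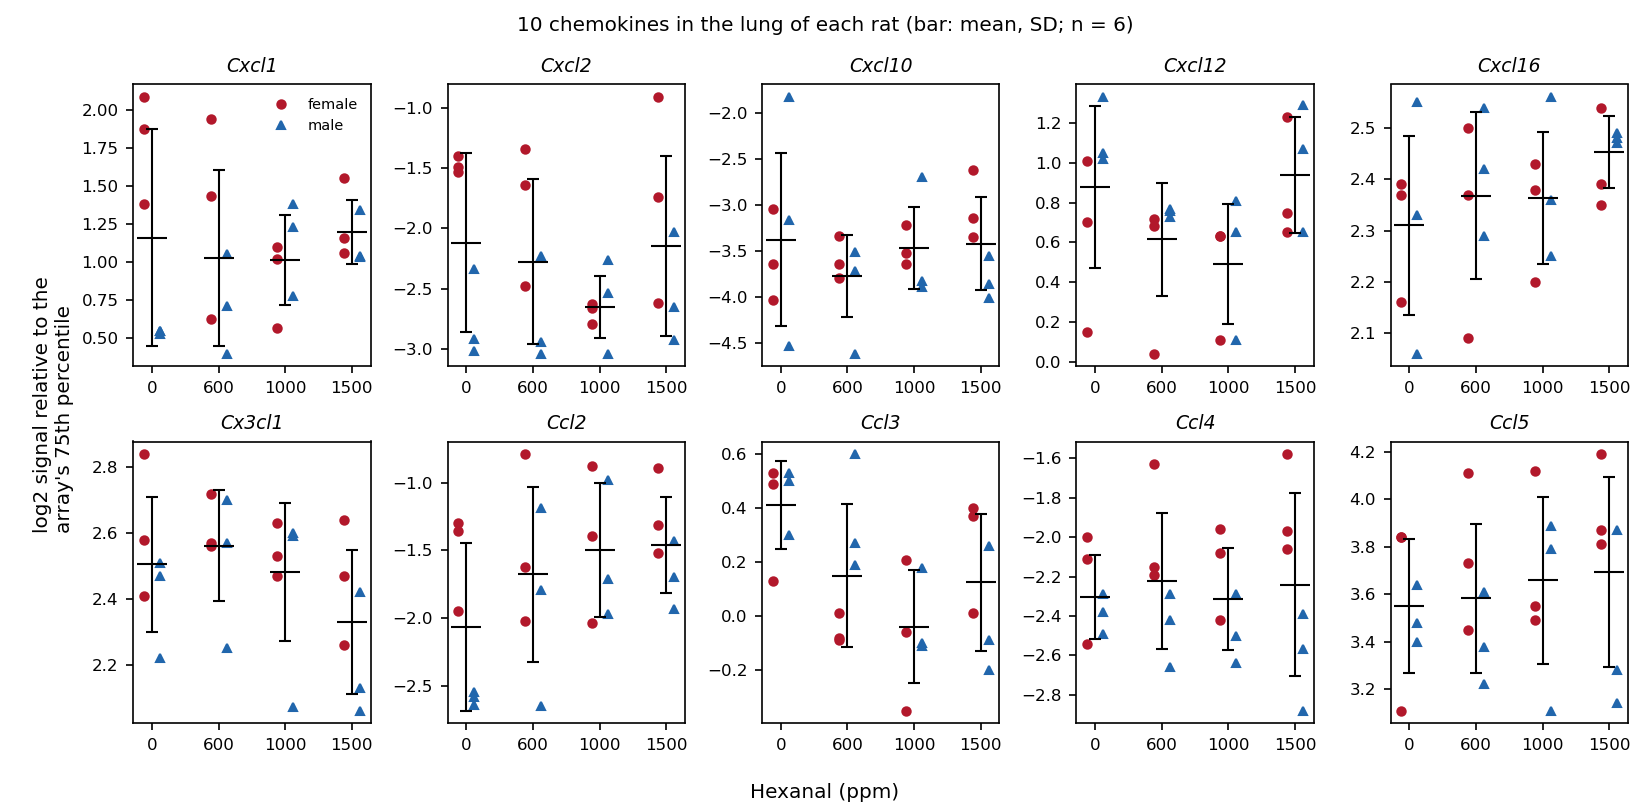
Level of each chemokine in each rat (y axis, log2 signal relative to the 75th percentile of the array) by hexanal dose (x axis, ppm; 0 is the control group), with females as red circles, males as blue triangles, and the mean and SD of 6 rats in black. In every panel the exposed rats overlap the control rats, and in the control group the 3 females lie above the 3 males for Cxcl1, Cxcl2 and Ccl2.

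Ccl3, a chemokine that macrophages release early in inflammation, had a lower mean at all 3 doses, with an unadjusted limma p-value under 0.05 at 1000 and 1500 ppm. Its level in the control group had a lowest value of 0.13, a median of 0.50 and a highest value of 0.53. The low-dose rats ranged from -0.09 to 0.60 with a median of 0.10, the middle-dose rats from -0.35 to 0.21 with a median of -0.08, and the high-dose rats from -0.20 to 0.40 with a median of 0.13. Of the 6 middle-dose rats, 4 lay below every control rat, and all 6 of the middle-dose and all 6 of the high-dose rats lay below the control mean. The difference from control was -0.26 (SE 0.13) at 600 ppm, -0.45 (SE 0.13) at 1000 ppm and -0.29 (SE 0.13) at 1500 ppm. At 1000 ppm that is a 1.37-fold lower level, under the 1.5-fold threshold, with an unadjusted limma p-value of 0.00183 and an adjusted one of 0.515. The exact two-sided permutation test of 6 rats against 6 gave p = 0.0671, 0.00649 and 0.0433 in order of dose, where the smallest value it can reach is 0.00216.

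With the slide as a block, the decrease of Ccl3 was -0.32 (SE 0.15), -0.58 (SE 0.20) and -0.51 (SE 0.26), with unadjusted limma p-values of 0.0537, 0.0112 and 0.0645, and adjusted p-values of 0.923, 0.999 and 0.983. Within slides, the low-dose rat differed from the mean of the 3 control rats by -0.18 in males and -0.46 in females. Middle-dose rats differed from low-dose rats of their slide by -0.36 in males and -0.16 in females, and high-dose from middle-dose rats by 0.10 and 0.05. The differences up to the middle dose were thus below 0 in both sexes, and those from the middle to the high dose were not. Ccl3 was printed as 10 spots on each array, and the median SD between spots of an array was 0.05, against an SD of 0.23 among rats of a group.

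Ccl2, the main attractant of monocytes through Ccr2, had a higher mean at each dose, although no difference passed the criterion. The control rats ranged from -2.64 to -1.30 with a median of -2.25. The low-dose rats ranged from -2.65 to -0.79 (median -1.71), the middle-dose rats from -2.04 to -0.88 (median -1.55) and the high-dose rats from -1.93 to -0.89 (median -1.47). All 6 middle-dose and all 6 high-dose rats lay above the control mean of -2.06, while 2 and 1 of them lay above every control rat. The difference was 0.39 (SE 0.30) at 600 ppm, 0.57 (SE 0.30) at 1000 ppm and 0.60 (SE 0.30) at 1500 ppm, the last a 1.51-fold difference with a 95% interval from -0.02 to 1.22. The unadjusted limma p-values were 0.209, 0.0717 and 0.0582, and the exact two-sided permutation p-values were 0.303, 0.115 and 0.0736.

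The value of Ccl2 turned on a few rats, and its means differed more from control in males than in females. Without control rat 21 or 22, females with high levels, the difference at 1500 ppm was 0.74 and 0.75 and passed the criterion, as did the difference at 1000 ppm, 0.71 and 0.72. It also passed at 1000 ppm without middle-dose rat 12 (0.66) or 32 (0.67), and at 1500 ppm without high-dose rat 16 (0.69) or low-dose rat 7 or 28 (0.60 each). The male means differed from the male control mean of -2.59 by 0.71, 1.03 and 0.90 in order of dose, and the female means from -1.54 by 0.06, 0.10 and 0.29. The male minus female effect was 0.65, 0.94 and 0.61 (SE 0.52 each). Its unadjusted limma p-values were 0.226, 0.0894 and 0.257, and the adjusted ones 0.964, 0.599 and 0.556, so none passed. With the slide as a block the difference of Ccl2 from control at 1500 ppm was 0.24 (SE 0.64). When the arrays with more heart muscle signal than any control array were left out, the difference was 0.04 at 600 ppm, 0.16 at 1000 ppm and 0.57 at 1500 ppm. The heart muscle marker sum was 3.43 to 36.3 in the control group, 5.09 to 60.1 in the low-dose, 8.49 to 125 in the middle-dose and 3.51 to 127 in the high-dose group, in multiples of the array's 75th percentile, and 2, 3 and 2 arrays of the exposed groups lay above every control array. Its part in the values of Ccl2 was not tested.

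Cxcl1 and Cxcl2, both ligands of Cxcr2 on neutrophils, passed no test against the control group as a mean of both sexes. The level of Cxcl1 ranged from 0.53 to 2.08 (median 0.97) in control rats, from 0.40 to 1.94 (median 0.88) in low-dose rats, from 0.57 to 1.38 (median 1.06) in middle-dose rats and from 1.03 to 1.55 (median 1.11) in high-dose rats. Its differences from control were -0.13, -0.14 and 0.04 (SE 0.27 each). Over both sexes the range was narrower in the high-dose group, whose SD was 0.21 against 0.71 in control rats, a difference in spread that was not tested. Control males lay from 0.53 to 0.55 and control females, on another slide, from 1.38 to 2.08. High-dose males lay from 1.03 to 1.34 and high-dose females from 1.06 to 1.55, so the range was wider than in control rats among males and narrower among females.

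Cxcl2 ranged from -3.02 to -1.40 (median -1.93) in control rats, from -3.04 to -1.34 (median -2.36) at 600 ppm, from -3.04 to -2.26 (median -2.65) at 1000 ppm and from -2.93 to -0.91 (median -2.32) at 1500 ppm. All 6 middle-dose rats lay below the control mean of -2.12, as did every control male, and 1 lay below every control rat. At 1000 ppm the male mean differed from the male control mean by 0.14, and the female mean from the female control mean by -1.22. Over both sexes the difference was -0.16, -0.54 and -0.03 (SE 0.35 each) in order of dose. At 1000 ppm the 95% interval ran from -1.27 to 0.19, with an unadjusted limma p-value of 0.141 and an exact two-sided permutation p = 0.13. A 1.5-fold decrease or no change at all both lie within that interval.

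Ccl4 and Ccl5, which are made in large amounts by cytotoxic lymphocytes, differed from control by at most 0.14 on the log2 scale. Ccl4 ranged from -2.54 to -2.00 in control rats (median -2.34) and from -2.88 to -1.58 in high-dose rats (median -2.23), the wider range of the exposed rats covering the control rats. Its differences were 0.08, -0.01 and 0.06 (SE 0.19 each). Ccl5 ranged from 3.11 to 3.84 in control rats (median 3.56), and 1, 2 and 3 rats of the low-dose, middle-dose and high-dose groups lay above every control rat. Its differences were 0.03, 0.11 and 0.14 (SE 0.19 each), with unadjusted limma p-values from 0.469 to 0.876.

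The membrane chemokines Cxcl16, the ligand of Cxcr6, and Cx3cl1, the ligand of Cx3cr1 on monocytes and NK cells, were the steadiest of the 10. Cxcl16 ranged from 2.06 to 2.55 in control rats (median 2.35) and from 2.35 to 2.54 in high-dose rats (median 2.47), and all 6 high-dose rats lay above the control mean of 2.31. Its differences were 0.06, 0.05 and 0.14 (SE 0.08 each), with an unadjusted limma p-value of 0.104 at 1500 ppm. Cx3cl1 ranged from 2.22 to 2.84 in control rats (median 2.49) and from 2.06 to 2.64 in high-dose rats (median 2.34), of which 2 lay below every control rat. Its differences were 0.05, -0.03 and -0.18 (SE 0.11 each), with an unadjusted limma p-value of 0.134 at 1500 ppm. For both genes the 95% intervals at all 3 doses lay inside a 1.5-fold change in either direction in the fit without the slide. With the slide as a block, those at 1500 ppm ran from -0.27 to 0.61 for Cxcl16 and from -0.60 to 0.46 for Cx3cl1, each reaching past it.

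Cxcl10, the interferon-induced ligand of Cxcr3, had a wide spread, with control rats from -4.54 to -1.83 (median -3.40), and its differences of -0.40, -0.09 and -0.05 (SE 0.34 each) were within it. Cxcl12, the ligand of Cxcr4, ranged from 0.15 to 1.33 in control rats (median 1.01), from 0.04 to 0.77 at 600 ppm (median 0.72), from 0.11 to 0.81 at 1000 ppm (median 0.63) and from 0.65 to 1.29 at 1500 ppm (median 0.91). All 6 low-dose and all 6 middle-dose rats lay below the control mean of 0.88. The difference was -0.26, -0.39 and 0.06 (SE 0.18 each), and at 1000 ppm the unadjusted limma p-value was 0.0449 and the exact two-sided permutation p = 0.0952. Cxcl12 has a second, dimmer probe for another transcript record, on which the differences at 600 and 1000 ppm were -0.23 and 0.02 (SE 0.22 each). The probes were thus alike at 600 ppm and disagreed on the decrease at 1000 ppm.

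**Figure D2:**
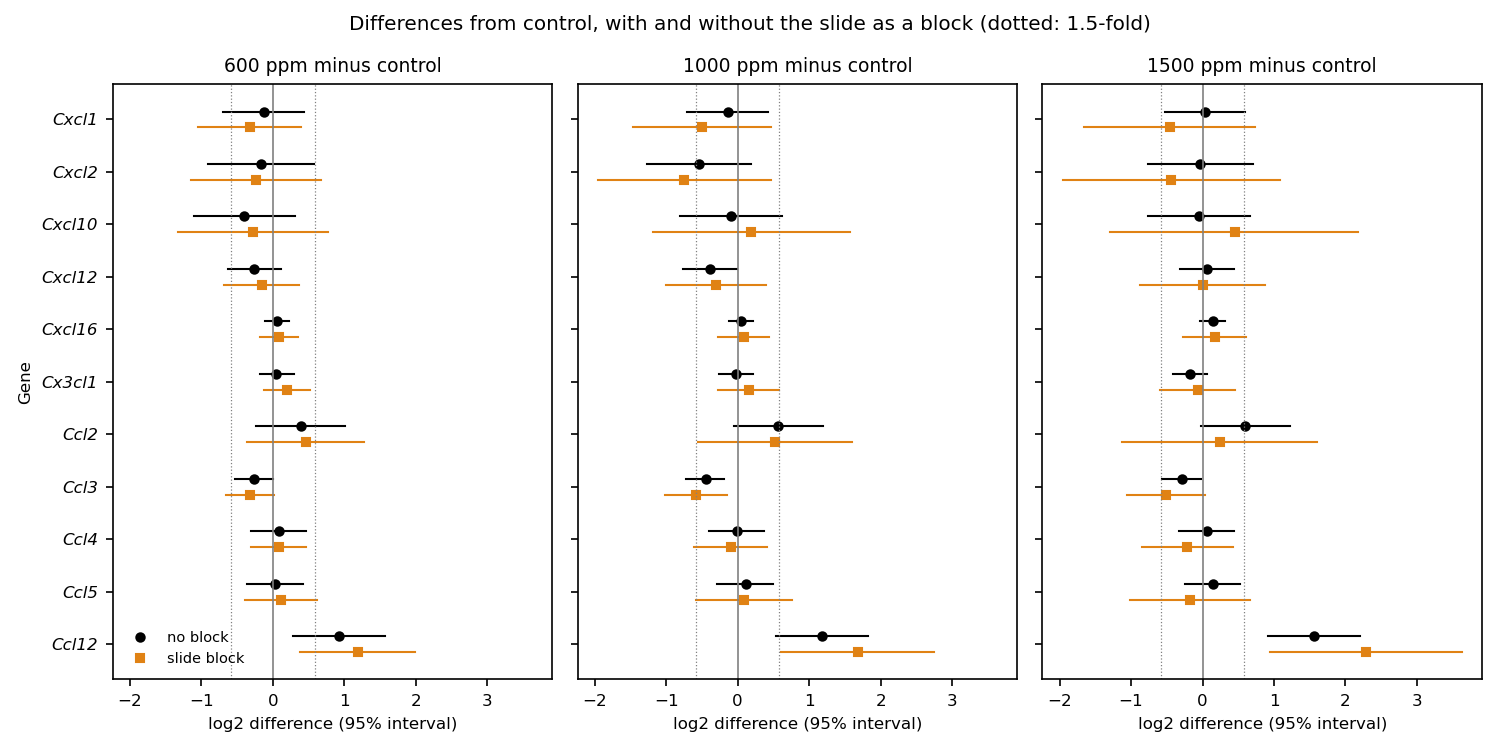
Difference from the control group (x axis, log2) for the 10 chemokines and Ccl12 (y axis) at 600, 1000 and 1500 ppm, with 95% intervals, from the fit on dose groups alone (black circles) and with the slide as a block (orange squares). Dotted lines mark a 1.5-fold change, the intervals with the slide block are mostly wider, and only those of Ccl12 lie wholly above 0 at all 3 doses in both fits.

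A straight line on dose gave an unadjusted limma p-value under 0.05 for 2 of the 10 chemokines, where 8.49% of all genes did. The slope was 0.41 (SE 0.19) per 1000 ppm for Ccl2, with an unadjusted p-value of 0.0386 and an adjusted one of 0.579, and -0.22 (SE 0.09) for Ccl3, with 0.02 and 0.519. With the slide as a block the slopes were 0.20 (SE 0.42) and -0.36 (SE 0.18), with unadjusted p-values of 0.634 and 0.0606. The other 8 slopes lay between -0.12 and 0.10.

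In the control group, some of the chemokines differed between males and females, which lay on separate slides. In the control group, every female lay above every male for 3 of the 10 chemokines, Cxcl1, Cxcl2 and Ccl2, where 18.7% of all genes did so, and every female lay below every male for 1 of 10, Cxcl12, where 11% did so. The 3 control females had Cxcl1 levels of 1.38, 1.87 and 2.08, and the 3 control males 0.53, 0.55 and 0.55. For Cxcl2 the control females lay between -1.53 and -1.40 and the males between -3.02 and -2.34. For Ccl2 the females lay between -1.95 and -1.30 and the males between -2.64 and -2.55. In the control group all females lay on 1 slide and all males on another, so a sex difference and a slide difference cannot be told apart here, and 3 rats against 3 cannot reach an exact two-sided p below 0.1.

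The means of Cxcl1 differed from control in opposite directions in the sexes, a contrast that passed adjustment at no dose. Males and females lay on separate slides throughout. Male means differed from the male control mean by 0.18, 0.59 and 0.60 at 600, 1000 and 1500 ppm, and female means from the female control mean by -0.44, -0.88 and -0.52. The male minus female effect at 600 ppm was 0.62 (SE 0.38), with an unadjusted limma p-value of 0.12 and an adjusted one of 0.953. At 1000 ppm it was 1.47 (SE 0.38), with 0.00108 and 0.264, and at 1500 ppm 1.12 (SE 0.38), with 0.00848 and 0.0965. The difference for Cxcl2 at 1000 ppm was 1.36 (SE 0.52), with 0.0168 and 0.437, and that for Ccl4 at 1500 ppm was -0.57 (SE 0.26), with 0.0427 and 0.228. Thus 0, 2 and 2 of 10 chemokines had an unadjusted p-value under 0.05 at 600, 1000 and 1500 ppm, where 4.99%, 9.41% and 20.2% of all genes did. After adjustment over all genes, 0 of 10 chemokines differed between the sexes at any dose, beside 0%, 0% and 5.02% of all genes.

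Steps within slides, taken from the same rats, are given for Cxcl1. On the male slides the low-dose rat lay above the control rats by 0.51 and the middle-dose above the low-dose rats by 0.53, and the high-dose rats differed from the middle-dose rat by -0.09. On the female slides the same steps were -1.14, -0.89 and 0.16. With the slide as a block, the male minus female effect was 1.65 (SE 0.43), 3.07 (SE 0.56) and 2.82 (SE 0.71) at the 3 doses, with unadjusted limma p-values of 0.00167, 8.48e-05 and 0.00131 and adjusted ones of 0.257, 0.12 and 0.0679. For Cxcl2 at 1000 ppm it was 2.96 (SE 0.89) and for Ccl2 2.53 (SE 0.82), with unadjusted p-values of 0.00506 and 0.0084 and adjusted ones of 0.426 and 0.441. For Ccl2 at 600 and 1500 ppm it was 1.89 (SE 0.62) and 1.67 (SE 1.03), with unadjusted limma p-values of 0.00896 and 0.128 and adjusted ones of 0.343 and 0.396. For Ccl4 at 1500 ppm it was -0.06 (SE 0.62), with an unadjusted p-value of 0.925. All these effects are measured from the control rats, whose Cxcl1 means were 1.77 in females and 0.54 in males. Each within-slide step rests on 1 to 3 rats of a dose.

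The chemokines differed widely in how much they varied among rats of the same group. The SD within dose groups was 0.64 for Cxcl2, 0.62 for Cxcl10, 0.54 for Ccl2 and 0.49 for Cxcl1, at percentiles 94, 93.4, 90.6 and 87.6 of all genes, whose median SD was 0.23. Ccl5, Ccl4 and Cxcl12 had SDs of 0.34, 0.33 and 0.33. Ccl3, Cx3cl1 and Cxcl16 had 0.23, 0.20 and 0.14, at percentiles 47.9, 40.8 and 21.5. Within dose and sex, the SD was 0.34 for Cxcl1 and 0.47 for Cxcl2. The median SD between the 10 spots of an array was 0.04 for Cxcl1 and 0.07 for Ccl2, so the spread among rats was several times that between spots of an array.

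Deviations from the dose group mean over the 24 rats, which share slides and sexes, tied some of the chemokines together, and are given as a description. Among the 45 pairs, 5 had a Pearson r of at least 0.60, and the median r was 0.13. The neighbours Cxcl1 and Cxcl2 had r = 0.80 and Spearman's rho = 0.87, and r = 0.81 without the 2 rats farthest from the median of Cxcl1. Cxcl1 and Ccl2 had r = 0.74, Cxcl2 and Ccl2 r = 0.61, and Cx3cl1 and Ccl5 r = 0.60. The highest value, r = 0.84 with rho = 0.81, was that of Ccl4 and Ccl5. Taken as deviations from the mean of the same dose and sex, Ccl4 and Ccl5 had r = 0.81, Cxcl1 and Cxcl2 r = 0.64, Cxcl1 and Ccl2 r = 0.61, and Cxcl2 and Ccl2 r = 0.31. Ccl3 had r = 0.10 to Ccl4 and r = 0.08 to Ccl5, near the median of the 45 pairs, although the 3 genes lie in 1 cluster of the genome. Within dose and sex these values were 0.25 and 0.15.

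**Figure D3:**
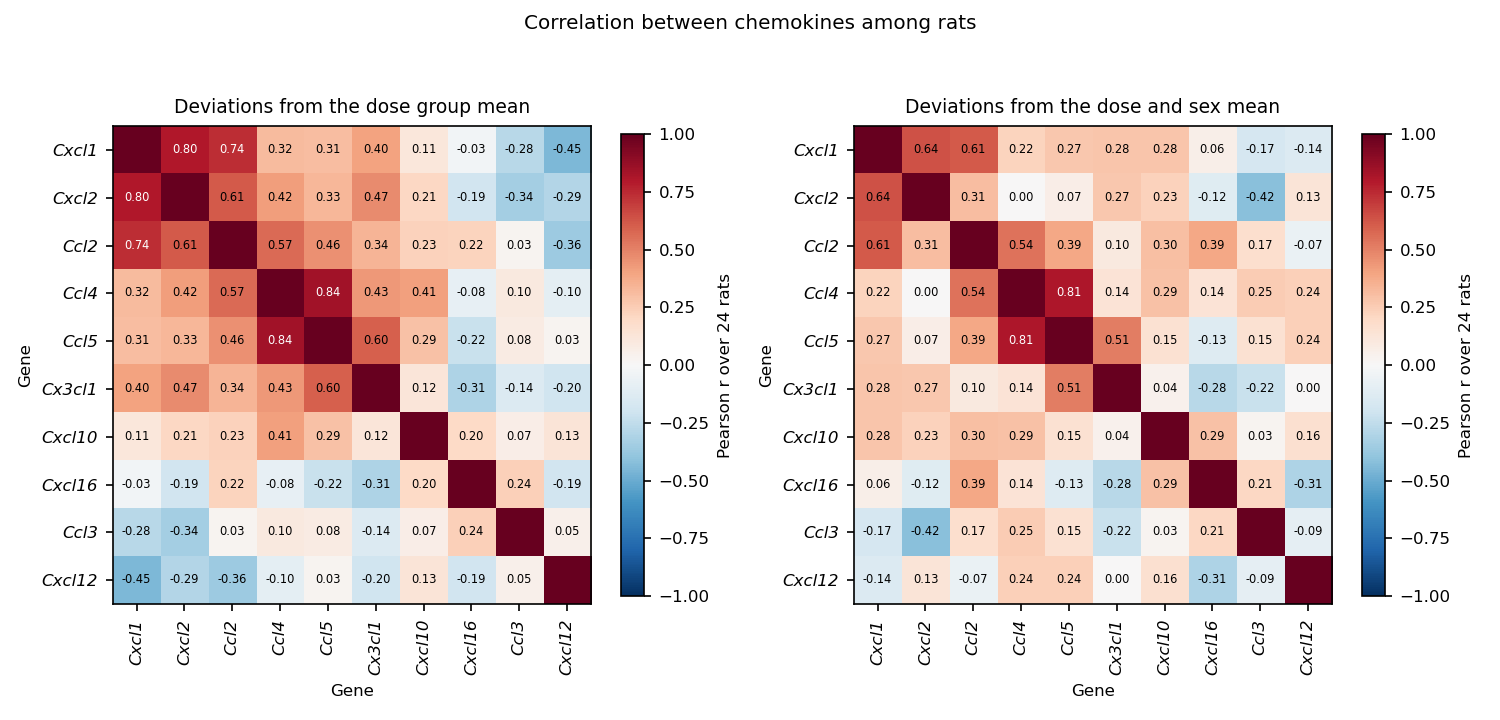
Pearson r (colour and number) between each pair of the 10 chemokines over 24 rats, from deviations of each rat from its dose group mean (left) and from the mean of its dose and sex (right). The block of Cxcl1, Cxcl2 and Ccl2 and the pair Ccl4 and Ccl5 stand out on the left, and the values within the former block are lower on the right.

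The genes most like each chemokine were sought by Pearson r of deviations from the dose group mean over the same 24 rats, among 12411 other genes with a symbol. The values given are the highest of that many, so part of their height comes from the search, and they are a description. Ccl5 was nearest to Nkg7 (r = 0.95), a granule membrane protein of NK and T cells, and to the NK cell receptor Klrd1 (r = 0.90), and Ccl4 to Sh2d2a and Faslg (r = 0.89 each), an adapter of T cells and the Fas ligand. Within dose and sex, r was 0.94 and 0.90 for those of Ccl5, and 0.76 and 0.71 for those of Ccl4. Nkg7 and Klrd1 are also on the list of NK and cytotoxic markers, of which 0 of 8 changed by the criterion at any dose, a rule that few of all genes met. The summed level of that list was 5.83 to 9.51 in control rats, 5.15 to 9.01 at 600 ppm, 4.53 to 8.54 at 1000 ppm and 5.21 to 9.37 at 1500 ppm.

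Cxcl1 was nearest to Syt6 (r = 0.88), a synaptotagmin, and Bcl3 (r = 0.81), a nuclear protein of the IkB family. Cxcl2 was nearest to Tnfaip2 (r = 0.88), named for its induction by TNF, and again Bcl3 (r = 0.86), and Ccl2 to its neighbour Ccl7 (r = 0.84) and Swap70 (r = 0.80). Within dose and sex, r was 0.77 and 0.66 for those of Cxcl1, 0.74 and 0.81 for those of Cxcl2, and 0.84 and 0.81 for those of Ccl2. Cxcl16 was nearest to RT1-DMa (r = 0.76), which helps load MHC class II molecules, and Cthrc1 (r = 0.72), and Cx3cl1 to Sit1 (r = 0.80) and Tssk3 (r = 0.78). Cxcl10 was nearest to Slx4ip and Tjp3 (r = 0.78 each), Cxcl12 to Ccdc61 and Pbx3 (r = 0.68 each), and Ccl3 to Parg (r = 0.66) and Abca1 (r = 0.64), lower values than the other genes had.

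The rest of the chemokine family was read from a list of 25 other genes, of which 24 had a probe and 21 passed the filter on dim probes. Of these 21, 1 was higher at 600 ppm, 2 at 1000 ppm and 2 at 1500 ppm by the criterion of the study, and 0 were lower at any dose. Their median difference was 0.11, 0.10 and 0.02, beside 0, 0 and 0.01 over all genes. By the same rule 0.16%, 1.29% and 0.701% of all genes were higher in order of dose, and 0.456%, 0.343% and 0.522% lower. Cxcl3 had no probe, and Cxcl6, Ccl1 and Ccl25 did not pass the filter. The genes that rose were Ccl12, Ccl11 and Ccl28.

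Ccl12, a monocyte attractant of rodents related to Ccl2 and lying in the same cluster, rose at every dose by the criterion over both sexes together, with means that differed more from control in males than in females. Its control level ranged from -5.86 to -3.41 with a median of -4.52, the low-dose rats from -4.19 to -3.19 (median -3.64), the middle-dose rats from -3.82 to -2.48 (median -3.56) and the high-dose rats from -3.36 to -2.56 (median -3.04). All 6 high-dose rats lay above every control rat. The difference was 0.93, 1.18 and 1.56 (SE 0.31 each), folds of 1.90, 2.26 and 2.95. The unadjusted limma p-values were 0.00676, 0.000995 and 4.89e-05, and the adjusted ones 0.997, 0.515 and 0.122. The exact two-sided permutation p-values were 0.039, 0.0195 and 0.00216, the last being the smallest that 6 rats against 6 can give.

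In males the Ccl12 means differed from control by 1.55, 1.87 and 2.08 in order of dose, and in females by 0.31, 0.48 and 1.04, the first pair of female values being under a 1.5-fold change. The male minus female effect was 1.24, 1.38 and 1.04 (SE 0.47 each), with unadjusted limma p-values of 0.0172, 0.00906 and 0.0416 and adjusted ones of 0.953, 0.386 and 0.226. Blocking on the slide gave 1.78 (SE 0.66), 1.95 (SE 0.87) and 1.14 (SE 1.1). The control males, from -5.86 to -4.96, all lay below the control females, from -4.09 to -3.41, and since these lay on separate slides, sex cannot be told apart from slide in that gap.

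Ccl12 was named because it met the criterion in these rats, so the values below, from the same rats, are not independent support. Within slides, Ccl12 was higher at the higher dose on all 6, each step resting on 1 to 3 rats of a dose. The share of all genes that do so was not counted. The low-dose rat lay above the control rats of its slide by 2.07 in males and 0.30 in females, the middle-dose above the low-dose rats by 0.58 and 0.41, and the high-dose above the middle-dose rat by 0.21 and 1.02. With the slide as a block the differences were 1.19 (SE 0.38), 1.68 (SE 0.51) and 2.29 (SE 0.63), with unadjusted limma p-values of 0.00649, 0.00404 and 0.00213 and adjusted ones of 0.835, 0.999 and 0.983. The slope on dose was 1.02 (SE 0.20) per 1000 ppm, with an unadjusted limma p-value of 2.52e-05 and an adjusted one of 0.075, and 1.56 (SE 0.41) with the slide as a block, with 0.00115 and 0.998. The probe is dim, and with normexp background correction the differences were 0.46, 0.53 and 0.93, of which only that at 1500 ppm met the criterion. Without the arrays high in heart muscle markers they were 0.74, 1.03 and 1.52, and that at 600 ppm no longer met it.

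Ccl11, the eosinophil attractant eotaxin, was higher at 1000 ppm, where its level ranged from 0.69 to 1.85 (median 1.67) against -0.87 to 1.39 (median 0.55) in control rats. The difference was 1.00 (SE 0.39) with an unadjusted limma p-value of 0.0183 and an adjusted one of 0.515, and 0.02 and 0.19 at 600 and 1500 ppm, where the slide as a block turned them to -0.20 (SE 0.54) and -0.69 (SE 0.90), and the slope on dose from 0.30 (SE 0.28) to -0.41 (SE 0.66) per 1000 ppm. At 1000 ppm it was 0.73 without control rat 23 and 0.49 (SE 0.72) with the slide as a block, and met the criterion in neither. Without the arrays high in heart muscle markers it was 0.88 and did not meet it either. Ccl28, a mucosal chemokine of epithelium, was higher at 1500 ppm by 0.80 (SE 0.26, unadjusted limma p = 0.00619 and exact permutation p = 0.039), with levels from -6.04 to -4.10 (median -5.49) against -6.45 to -5.61 (median -5.98). It was 0.57 without high-dose rat 36, 0.57 (SE 0.51) with the slide as a block, 0.32 without the arrays high in heart muscle markers and 0.22 with normexp, and met the criterion in none of these. Ccl7, which varied with Ccl2, differed by 0.21, 0.55 and 0.36 (SE 0.33 each) and did not pass.

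**Figure D4:**
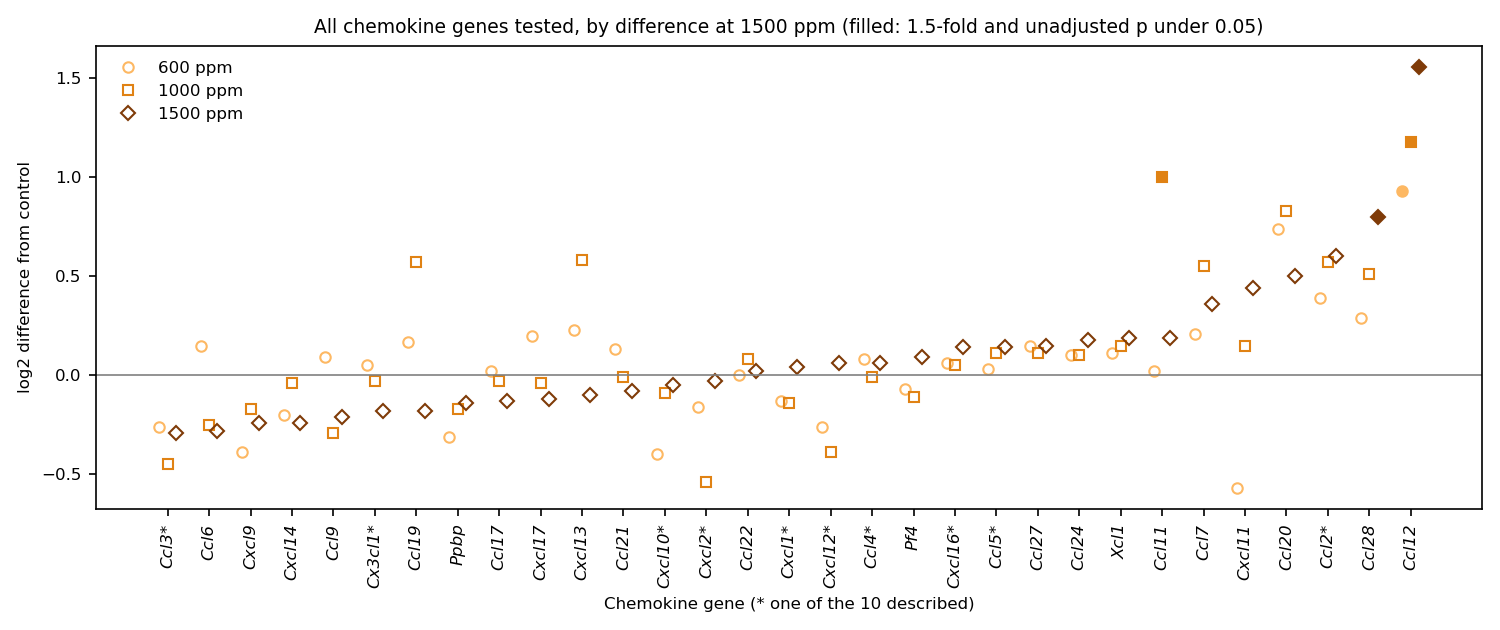
Difference from the control group (y axis, log2) at 600, 1000 and 1500 ppm for the 31 chemokine genes tested (x axis, ordered by the difference at 1500 ppm), with filled symbols where the fold change was at least 1.5 and the unadjusted limma p-value under 0.05. The 5 filled symbols belong to Ccl12, Ccl11 and Ccl28, and none to the 10 genes marked with an asterisk.

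The receptors that read these signals did not change by the criterion. Of 18 chemokine receptors, 17 had a probe and 13 were tested, with 0 higher and 0 lower at each dose and median differences of -0.02, 0.04 and -0.02. Ccr3, Ccr4, Cxcr5 and Xcr1 were too dim to be tested, and Ccr8 had no probe. The 3 atypical receptors tested (of 5), which bind chemokines without signalling for migration, and the 3 proteases Adam10, Adam17 and Dpp4, which shed or trim chemokines, also gave 0 changed genes at each dose. The largest shares of all genes by this rule were 1.29% higher, at 1000 ppm, and 0.522% lower, at 1500 ppm. Counts of 0 in lists this short are thus close to what the whole array gives.

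Of 6 genes that induce chemokines or feed back on NF-kB, 4 were tested, and 1 was lower by the criterion at 1000 and 1500 ppm. This was Nfkbia, the inhibitor of NF-kB that NF-kB itself induces, with differences of -0.63 and -0.65 (SE 0.24 each). The unadjusted limma p-values were 0.0133 and 0.0118 and the adjusted ones 0.515 and 0.591, and the methods' test gave 0.0725 and 0.0544 and counted Nfkbia as changed at neither dose. Control rats ranged from 2.82 to 4.47, middle-dose rats from 2.62 to 3.46 and high-dose rats from 2.75 to 3.30. At 1500 ppm the male mean differed from its control by -1.35 and the female mean by 0.06. The exact two-sided permutation p-values were 0.0779 and 0.0736. Blocking on the slide gave differences of -0.71 (SE 0.34) and -0.53 (SE 0.43), which did not pass. At 1000 ppm it was -0.40 without the arrays high in heart muscle markers and did not pass. The differences were -0.46 and -0.47 without control rat 1 and -0.50 and -0.52 without control rat 2, below the 1.5-fold threshold, and the difference at 1000 ppm was -0.57 without middle-dose rat 31 and -0.58 without rat 33. Immediate early genes, which respond to tissue handling as well as to stimuli, were lower at 1500 ppm for 7 of 13, with a median difference of -0.75, among them Fos (-2.42), Dusp1 (-1.32), Nr4a1 (-1.10) and Zfp36 (-0.98), and 1 of 13, Jun, was lower at 1000 ppm. Their summed level was 44.9 to 127 in control rats and 35.6 to 59.6 in high-dose rats, and their part in the chemokine values was not tested. By the same rule 0.343% of all genes were lower at 1000 ppm and 0.522% at 1500 ppm.

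**Figure D5:**
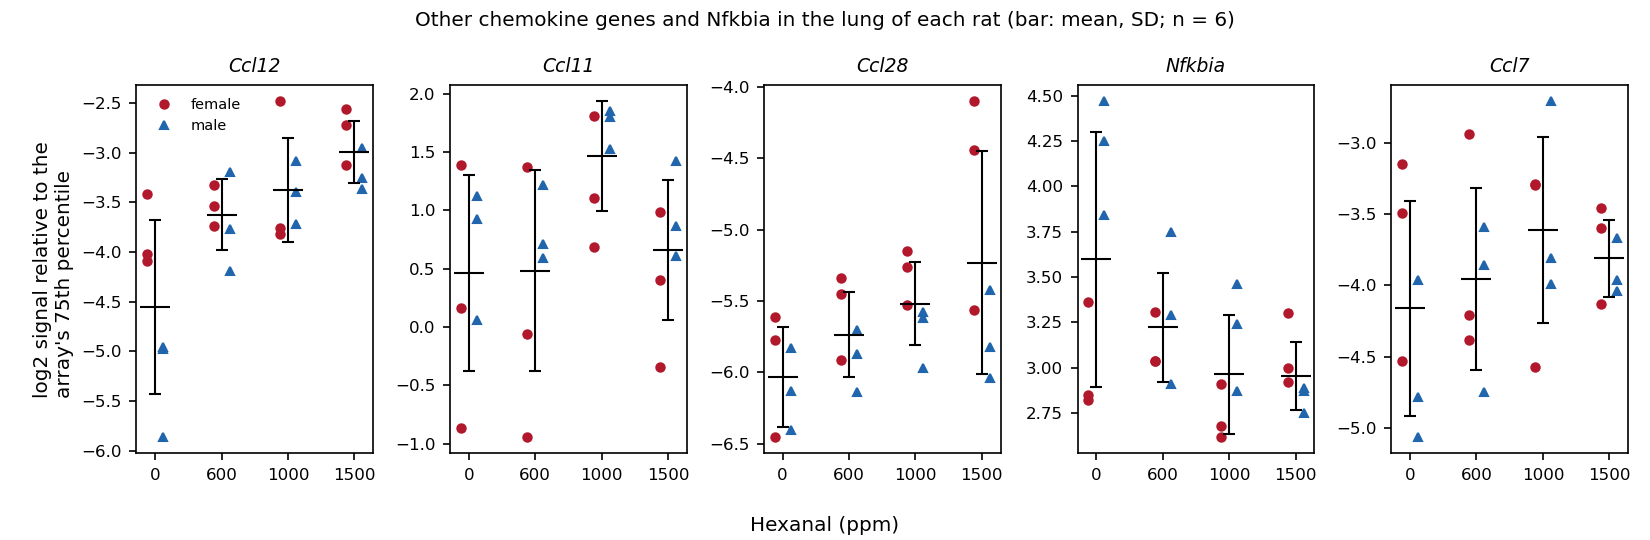
Level in each rat (y axis, log2 signal relative to the 75th percentile of the array) by hexanal dose (x axis, ppm; 0 is the control group) for Ccl12, Ccl11, Ccl28, Nfkbia and Ccl7, with females as red circles, males as blue triangles, and the mean and SD of 6 rats in black. All high-dose rats lie above the highest control rat for Ccl12, while the control males lie below the control females for Ccl12 and above them for Nfkbia.

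Markers of the leukocytes that chemokines attract were read from lists of their defining genes. Of 8 neutrophil markers tested, 1 was higher at 1000 ppm, S100a8, by 0.71 (SE 0.34). Its unadjusted limma p-value was 0.0465, and 1.29% of all genes were higher by the criterion at this dose. The summed level of the list was 6.55 to 10.9 in control rats, 6.87 to 13.2 at 600 ppm, 6.35 to 17.7 at 1000 ppm and 4.54 to 12.5 at 1500 ppm. The means of 6, 7 and 4 of the 8 neutrophil markers were higher than in control rats in order of dose, with median differences of 0.16, 0.25 and 0.01. Of 9 monocyte and macrophage markers, 0 changed at any dose, with sums of 140 to 220 in control rats and 139 to 205 in high-dose rats. Their means were lower than in control rats for 4, 6 and 8 of 9 in order of dose, with median differences of 0.02, -0.01 and -0.07. None of 8 T cell, 8 NK and cytotoxic and 4 B cell markers changed at any dose by the criterion. At 600 ppm the means of 8 of 8 T cell, 7 of 8 NK and cytotoxic and 4 of 4 B cell markers were lower than in control rats. Their median differences were -0.24, -0.13 and -0.40. At 1500 ppm 6 of 8 T cell, 6 of 8 NK and cytotoxic and 2 of 4 B cell markers were higher, with medians of 0.17, 0.07 and -0.01. The shares of all genes with a higher or lower mean were not counted, and the median difference over all genes was 0, 0 and 0.01 in order of dose. By the criterion, heart muscle markers were higher at 1000 ppm for 3 of 7, Actc1, Tnni3 and Tnnt2, and the erythroid gene Alas2 was lower at 1500 ppm. The means of all 7 heart muscle markers were higher than in control rats at each dose, with median differences of 0.85, 2.02 and 0.63.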

How the data were processed

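Lung RNA of 24 rats was measured on one-colour Agilent arrays. The deposited intensities are the authors' Agilent Feature Extraction 11.5.1.1 signals, corrected for local background and for spatial and multiplicative trends on the array, with no scaling from one array to another. The study's methods name no normalization for them, and the authors' series table holds the same intensities within 1% for 99.7% or more of probes. Control and outlier spots were dropped, the spots of a probe averaged, and the log2 signal taken relative to the array's 75th percentile. Probes were named by accession through the RefSeq table of GRCr8 (18355 of 30367). Probes had to be well above background on 5 or more of the 6 arrays of some group, and a gene with several probes was read from its brightest. Each dose was compared with control on all 24 arrays by limma 3.58.1 in R 4.3.3, with Benjamini-Hochberg adjustment over 21255 genes, tested on simulated data. The genes and lists were chosen with earlier results of these data known. From the other lists, genes counted as changed at any dose were named, at most 4 a list (Jun was added as a count of 1), and for each chemokine the 2 genes nearest to it. The alternatives were other background corrections, scalings, probes, filters, tests and covariates, the slide as a block, leaving out each rat, and, chosen after seeing the data, leaving out arrays high in heart muscle markers.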

Additional observations from a re-analysis of the deposited data

Results flagged for a closer look

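In 4 of 56 groups of 6 rats, 1 rat lay far from the rest, with a gap to its nearest neighbour that took a large share of the range of the group. Chance alone marks about 1 in 20 groups. The share was 0.879 for low-dose rat 28 in Cxcl12, 0.637 for low-dose rat 7 in Cxcl10, 0.65 for low-dose rat 8 in Cx3cl1 and 0.707 for middle-dose rat 12 in Cx3cl1, and each was the lowest of its group. The effect of 1500 ppm on Nfkbia differed between the sexes by -1.41 (SE 0.29), male minus female, with an adjusted limma p-value of 0.00963. In that contrast 5.02% of all genes passed adjustment. With the slide as a block it was -1.89 (SE 0.60), where the adjusted limma p-value was 0.116. Males and females lay on separate slides, so without the block sex and slide cannot be told apart. Control males lay from 3.84 to 4.47 and control females from 2.82 to 3.36.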

How the results depend on the processing

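The count of changed chemokines stayed at 0 at 600 ppm under every alternative run. It was 1, in each case Ccl2, at 1000 ppm in the authors' table without scaling, and at 1500 ppm with sex as a covariate and with control and 1 dose only. Leaving out 1 rat gave 0 to 0, 0 to 1 and 0 to 1 at the 3 doses. It also moved small differences across 0, over ranges of -0.31 to 0.05, -0.27 to 0.04 and -0.09 to 0.22 for Cxcl1 and -0.04 to 0.17, -0.09 to 0.05 and -0.07 to 0.19 for Ccl4 in order of dose, -0.33 to 0.22 and -0.28 to 0.26 for Cxcl10 at 1000 and 1500 ppm, 0 to 0.12 and -0.08 to 0.06 for Cx3cl1 at 600 and 1000 ppm, -0.28 to 0.12 for Cxcl2 and -0.08 to 0.15 for Cxcl12 at 1500 ppm, and -0.08 to 0.10 for Ccl5 at 600 ppm. Other settings turned the sign of further differences. In the authors' table these were Cxcl1 (-0.03), Cxcl12 (0) and Ccl4 (-0.01) at 1500 ppm, and Cxcl10 (0.01), Cx3cl1 (0.08) and Ccl4 (0.09) at 1000 ppm. With the slide as a block they were Cxcl1 (-0.46), Cxcl10 (0.45), Cxcl12 (0), Ccl4 (-0.22) and Ccl5 (-0.17) at 1500 ppm, Cxcl10 (0.19) and Cx3cl1 (0.16) at 1000 ppm, and the dose slopes of Cxcl1 (-0.33), Cxcl12 (-0.03), Ccl4 (-0.13) and Ccl5 (-0.09). The male minus female effects that changed sign with this block were those of Cxcl10 (0.70 and 0.22), Ccl3 (0.09 and 0.15) and Ccl5 (0.44 and 0.23) at 1000 and 1500 ppm, and Ccl4 (0.03 and 0.35) at 600 and 1000 ppm. With normexp they were Cxcl2 at 1500 ppm (0.01), Cx3cl1 at 1000 ppm (0.02) and the slopes of Cxcl10 (-0.15) and Cxcl12 (-0.01), with quantile normalization Ccl5 at 600 ppm (0), and on the second probe Cxcl12 at 1000 ppm (0.02). Without the arrays high in heart muscle markers they were Cxcl1 (-0.04) and Ccl4 (-0.05) at 1500 ppm and Ccl5 at 1000 ppm (-0.05). The cause was not tested. No paired analysis was possible because the groups share no rat numbers. The number of arrays and, for dim probes such as Ccl12 and Ccl28, the signal over background limit the precision.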
